A study of Mus musculus with 8 samples.

Results

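Cells remove messenger RNA by shortening its poly(A) tail, taking off its cap and digesting the body from either end. The genes described here encode that machinery: the CCR4-NOT and PAN2-PAN3 deadenylases, the decapping proteins and their LSM ring, the exonucleases XRN1 and XRN2, the RNA exosome and factors of nonsense-mediated decay. They were chosen as a list of 50 gene symbols because the stalk of RNA polymerase II, made of RPB4 and RPB7, is linked to mRNA decay. No measured value entered this rule, but earlier results of these data were known when the list was chosen. The deposited table held a row for 49 of the 50 among its 20894 genes, and Dis3, a catalytic exosome subunit, was not analysed here. After a filter on low counts 40 members were tested.

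Livers came from wild-type mice that had received AAV8, a virus that delivers genes well to hepatocytes, and were collected after a fast in daytime. In 1 group the TBG promoter, which works mainly in hepatocytes, drove POLR2G, the gene of RPB7. In the control group the same promoter drove green fluorescent protein (GFP), so that all animals carried a vector. Each group had 4 libraries. The sources used here give no age, sex or vector dose, and do not say whether libraries come from separate animals; the p-values cover only the spread among these libraries, which may be technical. One POLR2G library has a column number that the labels do not list and is called the unnumbered POLR2G library.

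Library totals were 14159056 to 22165491 counts. Polr2g had 213 to 258 counts with the GFP vector and 38649 to 54553 with the POLR2G vector, and each library went with its label. All 8 hepatocyte markers looked for were tested, and their summed level was 110002 to 138495 CPM (counts per 1e6 counts, scaled by the TMM method). Markers of macrophages summed to 229 to 484 CPM, with the highest value in the unnumbered POLR2G library. Those of cholangiocytes summed to 5.64 to 11.7 CPM. With POLR2G the mean was lower for 6 of 8 tested hepatocyte markers. It was higher for 7 of 8 macrophage, 6 of 7 stellate and fibroblast, 4 of 6 endothelial and 2 of 3 cholangiocyte markers. All 5 erythroid markers and the 1 tested lymphocyte or neutrophil marker also had a higher mean, as did 49.3% of all genes tested. In such whole tissue, fewer cells of a type and less RNA per cell cannot be told apart. Across all 10390 genes tested, 4 passed the edgeR quasi-likelihood test at an adjusted p under 0.05, and Polr2g itself was 1 of them. No marker of these cell types was among them.

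Deadenylation is usually the first and slowest step of mRNA decay. CCR4-NOT does most of it in the cytoplasm, and adaptor proteins such as TOB1 bring it to the tail-bound poly(A)-binding protein. A shortened tail lets the LSM1-7 ring and PATL1 call in the decapping enzyme DCP2, after which XRN1 digests the body, while the exosome works from the other end and also processes nuclear RNA. In yeast the polymerase stalk has been reported to follow transcripts into the cytoplasm and to influence their decay there.

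Most mRNAs of the decay machinery differed little between livers with and without extra POLR2G. Of the 40 tested members 0 passed at an edgeR adjusted p under 0.05, in either direction, against 0.0385% of all genes tested. DESeq2, which called 1.8% of the genes it gave an adjusted p, and limma-voom, which called 0.0289% of all genes, called 0 members. At an unadjusted p under 0.05 edgeR gave 2 members, Tob1 and Exosc5, both with a higher mean with POLR2G, where 8.3% of all genes reached that level, 4.2% with a higher and 4.1% with a lower mean. DESeq2 and limma-voom each gave 2 members at that level too, against 8.68% and 8.95% of all genes. The members' share was thus no larger than that of the whole table. The median log2 fold change of the members was −0.042, against −0.0031 for all genes tested, with 16 members having a higher and 24 a lower mean. Without the unnumbered POLR2G library that median was 0.0062, so its sign rests on 1 library.

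How large a difference these libraries leave room for can be read from the 95% intervals of the log2 fold changes. For 27 of the 40 members the whole interval lay within 1.5-fold in either direction, as it did for 51.7% of all genes tested, and for 33 members it lay within 2-fold. The median standard error (SE) of a log2 fold change was 0.141 for the members and 0.177 for all genes. Intervals were wide for the members with few counts. Smg1 had 0 to 20 counts in a library and an interval from −2.29 to 1.75.

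**Figure D1:**
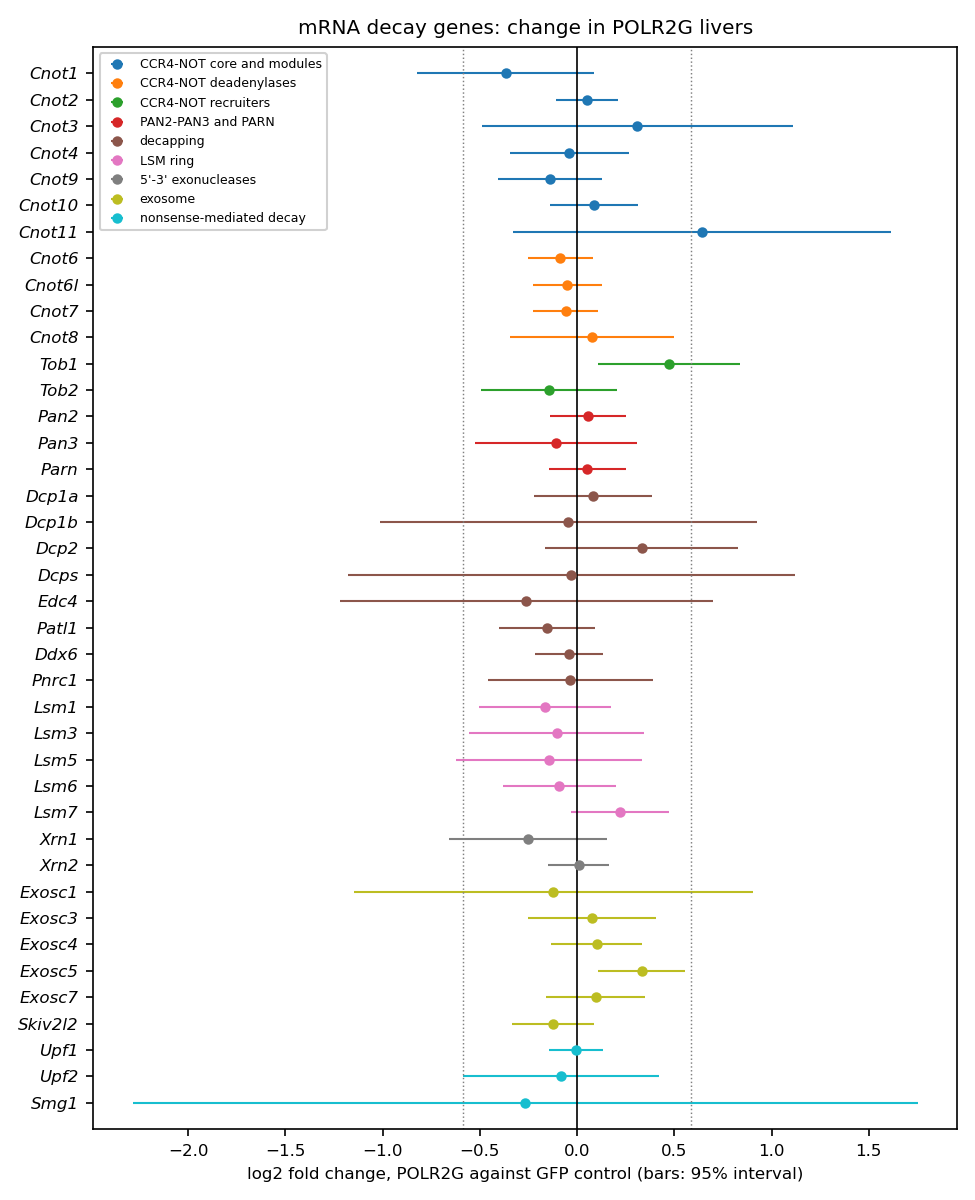
Each point is the log2 fold change of 1 tested member, POLR2G against GFP control, with its 95% interval from edgeR as a bar, coloured by role; dotted lines mark 1.5-fold. Tob1 (0.47) and Exosc5 (0.33) are the only members whose interval lies wholly to one side of 0, and Smg1 has the widest interval.

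Several members had counts too low to carry any comparison. The 9 members with a row but no test fell below the filter, which asks for about 10 counts in as many libraries as a group holds. Pabpc1, the main cytoplasmic poly(A)-binding protein and an abundant mRNA in most tissues, was listed at 2 to 9 counts in a library. Exosc2, an RNA-binding cap subunit of the exosome, was listed at 0 in all 8 libraries. Edc3 (0 to 3 counts), Lsm2 (0 to 4), Lsm4 (0 to 10), Exosc8 (0 to 4), Exosc9 (0 to 5) and Smg6 (0 to 2) were similar. These genes serve nearly all cells, and no source used here says how the authors combined transcripts into genes. A low value is therefore not read as absence of the mRNA. All 9 have more than 1 annotated coding transcript in GENCODE M21, while 8 of the 40 tested members have 1. Over all genes the shares went the other way: 2973 of 10376 tested genes and 3787 of 10396 untested ones have 1. Having 1 does not secure a value: Exosc6, an exosome gene outside the list with 1 annotated coding transcript, was at 0 counts in all 8 libraries. Whether the values of the 40 tested members cover all of their transcripts was not tested.

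**Figure D2:**
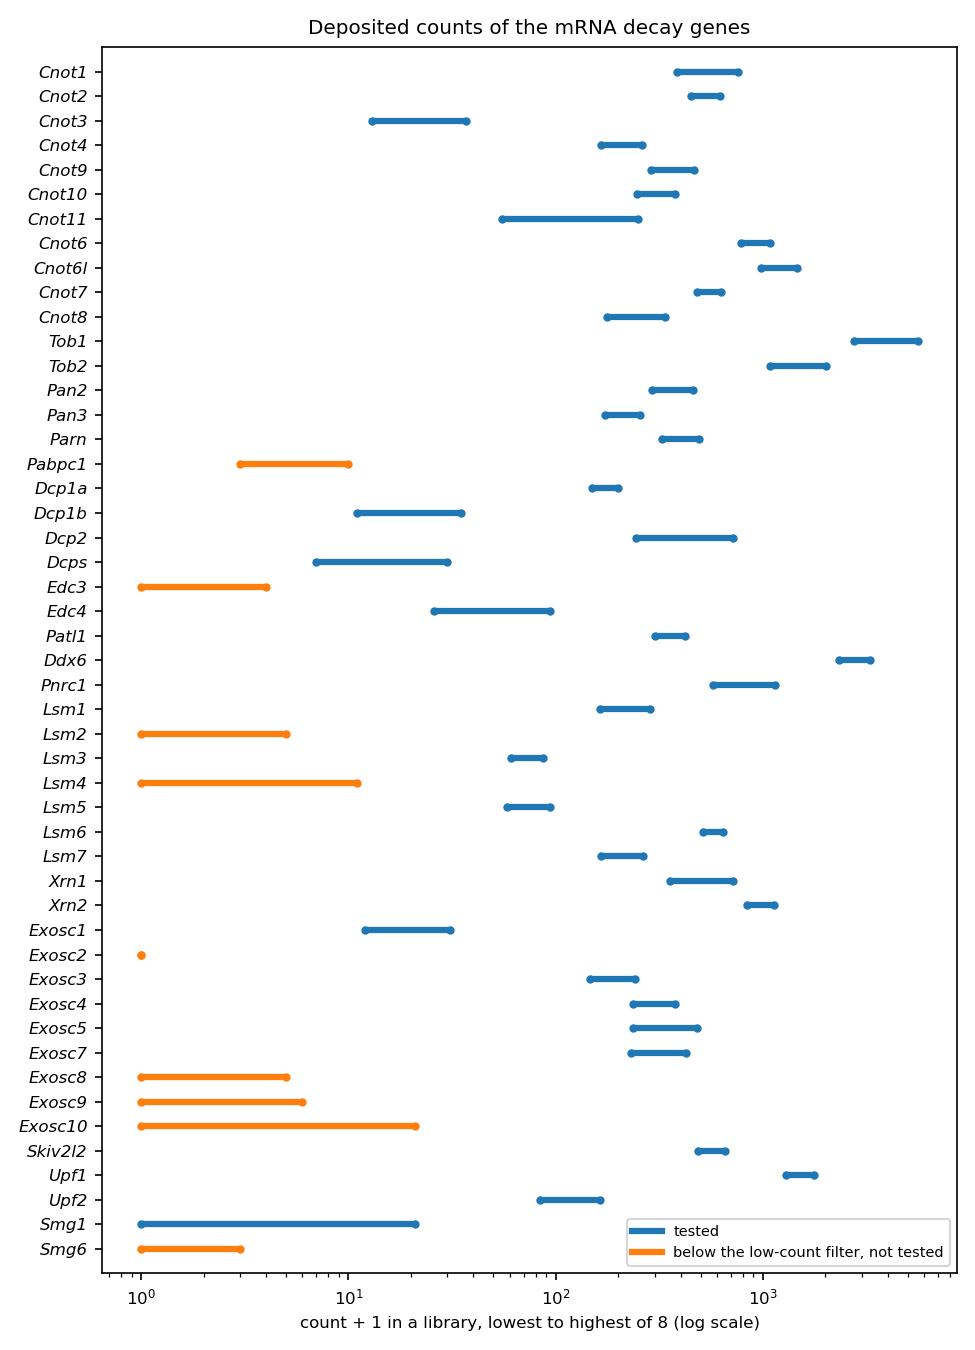
Deposited counts of the 49 members with a row, shown as the lowest to the highest of the 8 libraries on a log axis of count plus 1. The 9 members in orange, among them Pabpc1 with 2 to 9 counts, lie below the low-count filter; Tob1 reaches 5605 counts.

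Among the members below the filter, Exosc10 had the most counts. It encodes RRP6, a nuclear catalytic exosome subunit, and is described here after its values were seen. Its counts were 20, 9, 4 and 19 in GFP control replicates 1 to 4. With POLR2G they were 4 in replicate 1 and 0 in replicate 3, replicate 4 and the unnumbered library, so that the groups met at 4 counts. Scaled for library size they lay next to each other without overlap, at 0.258 to 1.13 CPM in controls and 0 to 0.193 CPM with POLR2G. So few counts make this a weak description. A fit with no low-count filter gave a log2 fold change of −3.65 (SE 1.07), at an unadjusted edgeR p under 0.05 but not past the threshold over all genes (adjusted p = 0.471). With 2 annotated coding transcripts, it shares the limit just described.

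CCR4-NOT is built on the scaffold CNOT1, to which the other subunits dock. All 7 core and module genes were tested, 4 with a higher and 3 with a lower mean (their median log2 fold change 0.051). Cnot1 measured 36.6, 42.0, 24.8 and 41.0 CPM in GFP control replicates 1 to 4. POLR2G replicates 1, 3 and 4 measured 21.5, 37.4 and 24.7 CPM, and the unnumbered library 28.4 CPM. GFP control replicate 3 lay among the POLR2G values and POLR2G replicate 3 among the control values, so the groups overlapped. The log2 fold change was −0.37 (SE 0.201, edgeR adjusted p = 0.690, exact permutation p = 0.229). Leaving out GFP control replicate 3 gave −0.51 (edgeR adjusted p = 0.441), and leaving out POLR2G replicate 3 gave −0.54 (edgeR adjusted p = 0.540). Without POLR2G replicate 1 it was −0.26 (edgeR adjusted p = 0.892).

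Cnot11 encodes a subunit of the module that docks at the N-terminal end of CNOT1. Its log2 fold change, the largest of the tested members, was 0.64 (SE 0.432, edgeR adjusted p = 0.764), with the widest spread between libraries among the core genes. GFP control replicates 2 to 4 measured 3.13, 4.51 and 4.06 CPM, and replicate 1 measured 11.9 CPM. The POLR2G libraries measured 7.14, 6.97 and 7.92 CPM in replicates 1, 3 and 4 and 14.9 CPM in the unnumbered library. The groups overlapped through GFP control replicate 1 alone. The unnumbered library also had the highest sum of macrophage markers, 484 CPM against 229 to 353 CPM in the others. GFP control replicate 1, the other high library for Cnot11, had a sum of 237 CPM. Of the 8 tested macrophage markers 0 passed, and Cd68 was at 0 to 4 counts. The part of these cells in the values of the unnumbered library was not tested. Without GFP control replicate 1 the log2 fold change was 1.24 (edgeR adjusted p = 0.288), and without the unnumbered POLR2G library it was 0.31 (edgeR adjusted p = 0.928). The partner of CNOT11 in that module, Cnot10, measured 16.1 ± 1.46 CPM in controls and 17.0 ± 1.17 CPM with POLR2G (SD, n = 4 each).

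The remaining core genes had small differences or few counts. Cnot2, a subunit of the NOT module, measured 30.0 ± 1.96 and 31.1 ± 1.004 CPM in controls and POLR2G libraries (log2 fold change 0.051, SE 0.072). Cnot4, a ubiquitin ligase, had a log2 fold change of −0.040 (SE 0.136) and Cnot9, a docking site for adaptor proteins, one of −0.14 (SE 0.119). Cnot3, the partner of CNOT2, had only 12 to 36 counts in a library, and its interval ran from −0.49 to 1.11.

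The catalytic subunits come as a pair of paralogues of each kind, CNOT6 and CNOT6L on the one hand and CNOT7 and CNOT8 on the other. All 4 intervals lay within 1.5-fold. Cnot6 measured 50.6 to 58.5 CPM in controls and 46.7 to 54.0 CPM with POLR2G (log2 fold change −0.087, SE 0.0745, edgeR adjusted p = 0.824). Cnot7 measured 29.1 to 34.1 and 28.6 to 32.0 CPM (−0.058, SE 0.0744, edgeR adjusted p = 0.896). Cnot6l had a log2 fold change of −0.050 (SE 0.079) and Cnot8, with the widest interval of the 4, one of 0.076 (SE 0.188). A difference beyond 1.5-fold in the deposited mRNA counts thus lies outside the interval of each of these genes. All 4 have more than 1 annotated coding transcript, and whether the counts cover all of these was not tested.

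Tob1 and Tob2 encode adaptors that bind both CNOT7 or CNOT8 and the poly(A)-binding protein, and TOB1 is known as an antiproliferative factor. Tob1 (ENSMUSG00000037573; GRCm38 chromosome 11, 94211454 to 94215495, plus strand) has 1 annotated coding transcript. It measured 213, 162, 179 and 149 CPM in GFP control replicates 1 to 4. POLR2G replicates 1, 3 and 4 measured 270, 172 and 256 CPM, and the unnumbered library 278 CPM. Replicate 3 lay among the controls and the other POLR2G libraries above all of them. Tob1 was 1.39-fold higher (log2 fold change 0.47, SE 0.163, 95% interval 0.11 to 0.84). It did not pass over all genes (edgeR p = 0.0165, adjusted p = 0.468), and an exact permutation test, two-sided, gave p = 0.0857. With 1 library left out the log2 fold change was 0.40 to 0.61, and the unadjusted edgeR p stayed under 0.05 in all 8 such fits, but not in the 6 libraries whose replicate number is known in both groups (0.37, edgeR adjusted p = 0.747). Its paralogue Tob2 had a lower mean, 78.2 ± 16.4 against 86.5 ± 12.1 CPM (log2 fold change −0.14, SE 0.155, edgeR adjusted p = 0.870).

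PAN2-PAN3 trims long tails before CCR4-NOT acts, and PARN is a deadenylase best known for maturing small RNAs. All 3 intervals lay within 1.5-fold. Pan2 measured 18.7 to 21.2 CPM in controls and 19.0 to 22.1 CPM with POLR2G (log2 fold change 0.057, SE 0.0867, edgeR adjusted p = 0.921). Parn measured 20.5 to 22.8 and 19.3 to 23.5 CPM (0.053, SE 0.0873, edgeR adjusted p = 0.929). Pan3 had a log2 fold change of −0.11 (SE 0.185).

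**Figure D3:**
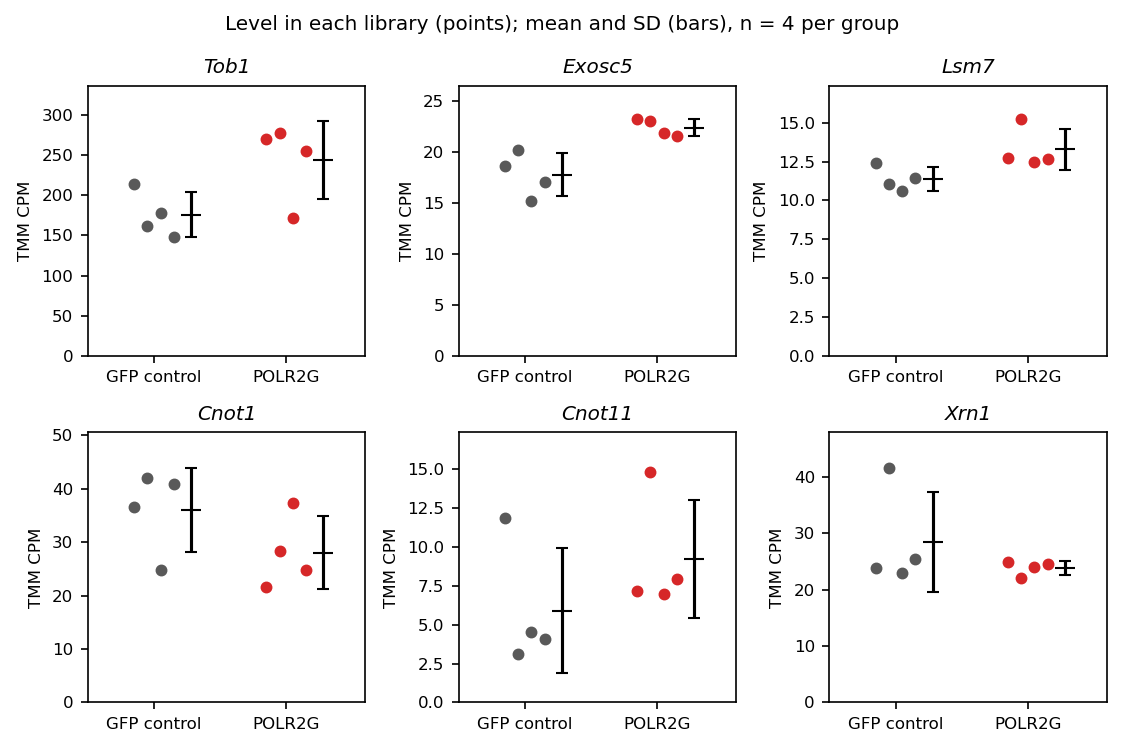
CPM of 6 members in each library (points, 4 GFP control in grey and 4 POLR2G in red), with the mean and SD of each group as a bar; axes start at 0. The groups are apart for Exosc5 and Lsm7, while Cnot11 has 1 high library in each group and Xrn1 1 high control library at 41.7 CPM.

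Removal of the cap by DCP2 commits an mRNA to destruction. Of the 9 decapping genes 8 were tested, 2 with a higher and 6 with a lower mean (their median log2 fold change −0.039). Dcp2 measured 19.4, 19.0, 15.6 and 29.4 CPM in GFP control replicates 1 to 4, and 34.4, 27.7 and 23.5 CPM in POLR2G replicates 1, 3 and 4 and 19.3 CPM in the unnumbered library. The highest control library exceeded 3 of the 4 POLR2G libraries. The log2 fold change was 0.33 (SE 0.220, edgeR adjusted p = 0.758). Without GFP control replicate 4 it was 0.54 (edgeR adjusted p = 0.557), and without POLR2G replicate 1 it was 0.17 (edgeR adjusted p = 0.938).

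Patl1, a scaffold between deadenylation and decapping with 1 annotated coding transcript, measured 18.3 to 23.7 CPM in controls and 16.2 to 20.1 CPM with POLR2G (log2 fold change −0.16, SE 0.109, edgeR adjusted p = 0.772). Ddx6, the helicase that links CCR4-NOT to decapping and to translational repression, measured 162 ± 9.63 and 157 ± 12.4 CPM (−0.043, SE 0.078), among the most tightly measured members. Dcp1a, a cofactor of DCP2, had a log2 fold change of 0.080 (SE 0.135). Pnrc1, a cofactor that binds the decapping complex, had a log2 fold change of −0.035 (SE 0.188), and GFP control replicate 1, at 64.8 CPM, lay above all other libraries, which ranged from 33.4 to 46.8 CPM. Edc4, a decapping scaffold (25 to 93 counts), Dcp1b (10 to 34 counts) and Dcps, the scavenger of released caps (6 to 29 counts), had intervals that reached beyond 1.5-fold on both sides.

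The LSM1-7 ring binds the 3′ end of deadenylated mRNA, and the proteins LSM2 to LSM7 also sit in the nuclear ring of U6 snRNA. Of the 5 tested ring genes 4 had a lower mean (median log2 fold change −0.10), and Lsm7 had a higher one. Lsm7 measured 12.4, 11.1, 10.6 and 11.4 CPM in GFP control replicates 1 to 4. It measured 12.7, 12.5 and 12.6 CPM in POLR2G replicates 1, 3 and 4 and 15.3 CPM in the unnumbered library. The groups did not overlap, although GFP control replicate 1 and POLR2G replicate 3 nearly touched. The log2 fold change was 0.22 (SE 0.111, edgeR adjusted p = 0.654, exact permutation p = 0.0286), and 0.15 (edgeR adjusted p = 0.839) without the unnumbered library. That permutation p is the smallest that 4 against 4 libraries allow. Groups that are apart always reach it, so it adds nothing to the non-overlap. Non-overlap was found for 2 of 40 members, Lsm7 and Exosc5, both with POLR2G above, and for 5.51% of all genes tested, 2.83% with POLR2G above and 2.68% with it below. The other ring genes were Lsm1 (−0.16, SE 0.150, edgeR adjusted p = 0.834), Lsm3 (−0.10, SE 0.200), Lsm5 (−0.15, SE 0.213) and Lsm6 (−0.093, SE 0.129).

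XRN1 is the cytoplasmic exonuclease that digests decapped mRNA, and its nuclear relative XRN2 acts in transcription termination. Xrn1 measured 23.9, 41.7, 23.0 and 25.4 CPM in GFP control replicates 1 to 4 and 22.2 to 24.9 CPM with POLR2G. Its lower mean (log2 fold change −0.25, SE 0.181, edgeR adjusted p = 0.773) rested on GFP control replicate 2, and without that library the log2 fold change was −0.011 (edgeR adjusted p = 0.985). Xrn2, with 1 annotated coding transcript, measured 54.4 ± 4.03 and 54.7 ± 1.46 CPM (0.0080, SE 0.0698, edgeR adjusted p = 0.993). Its 95% interval ran from −0.15 to 0.16.

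The exosome is a barrel of subunits that feeds RNA to the nucleases DIS3 and RRP6, helped in the nucleus by the helicase MTR4, the product of Skiv2l2. Of its 6 tested genes 4 had a higher mean (median log2 fold change 0.087). Exosc5 (ENSMUSG00000061286; GRCm38 chromosome 7, 25659164 to 25671368, plus strand) encodes RRP46, a subunit of the barrel's ring. It measured 18.7, 20.2, 15.2 and 17.1 CPM in GFP control replicates 1 to 4. All POLR2G libraries were higher, at 23.2, 21.8 and 21.5 CPM in replicates 1, 3 and 4 and 23.0 CPM in the unnumbered library. Exosc5 was 1.26-fold higher (log2 fold change 0.33, SE 0.0998, 95% interval 0.11 to 0.56). It did not pass over all genes (edgeR p = 0.00833, adjusted p = 0.388), and the exact permutation p, two-sided, was 0.0286, the smallest that 4 against 4 libraries allow. In the 8 fits that left out 1 library the log2 fold change was 0.26 to 0.40, each at an unadjusted edgeR p under 0.05.

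The other subunits had smaller differences. Exosc4, another ring subunit, measured 16.9 ± 1.93 CPM in controls and 18.1 ± 1.17 CPM with POLR2G (log2 fold change 0.100, SE 0.105). Exosc7 measured 18.6 ± 2.51 and 19.9 ± 1.29 CPM (0.095, SE 0.114), with GFP control replicate 3 the lowest library at 14.8 CPM. Exosc3, an RNA-binding cap subunit, measured 10.6 ± 1.87 and 11.1 ± 0.598 CPM (0.079, SE 0.146). Skiv2l2 (−0.12, SE 0.094, edgeR adjusted p = 0.788) measured 29.2 to 36.9 and 26.3 to 31.3 CPM. Exosc1, with 11 to 30 counts, had an interval from −1.15 to 0.90.

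Nonsense-mediated decay removes transcripts with early stop codons and also sets the level of some normal ones. UPF1 is its central helicase, UPF2 activates it, SMG1 is the kinase that phosphorylates it and SMG6 cuts the target. Upf1 was the most tightly measured member, at 79.9 ± 2.65 CPM in controls and 79.6 ± 3.76 CPM with POLR2G (log2 fold change −0.0042, SE 0.0619, interval −0.14 to 0.14). Upf2 measured 7.62 ± 1.91 and 7.19 ± 1.27 CPM (−0.083, SE 0.223, edgeR adjusted p = 0.958). Smg1 counts were too few to read (−0.27, SE 0.898, edgeR adjusted p = 0.972).

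**Figure D4:**
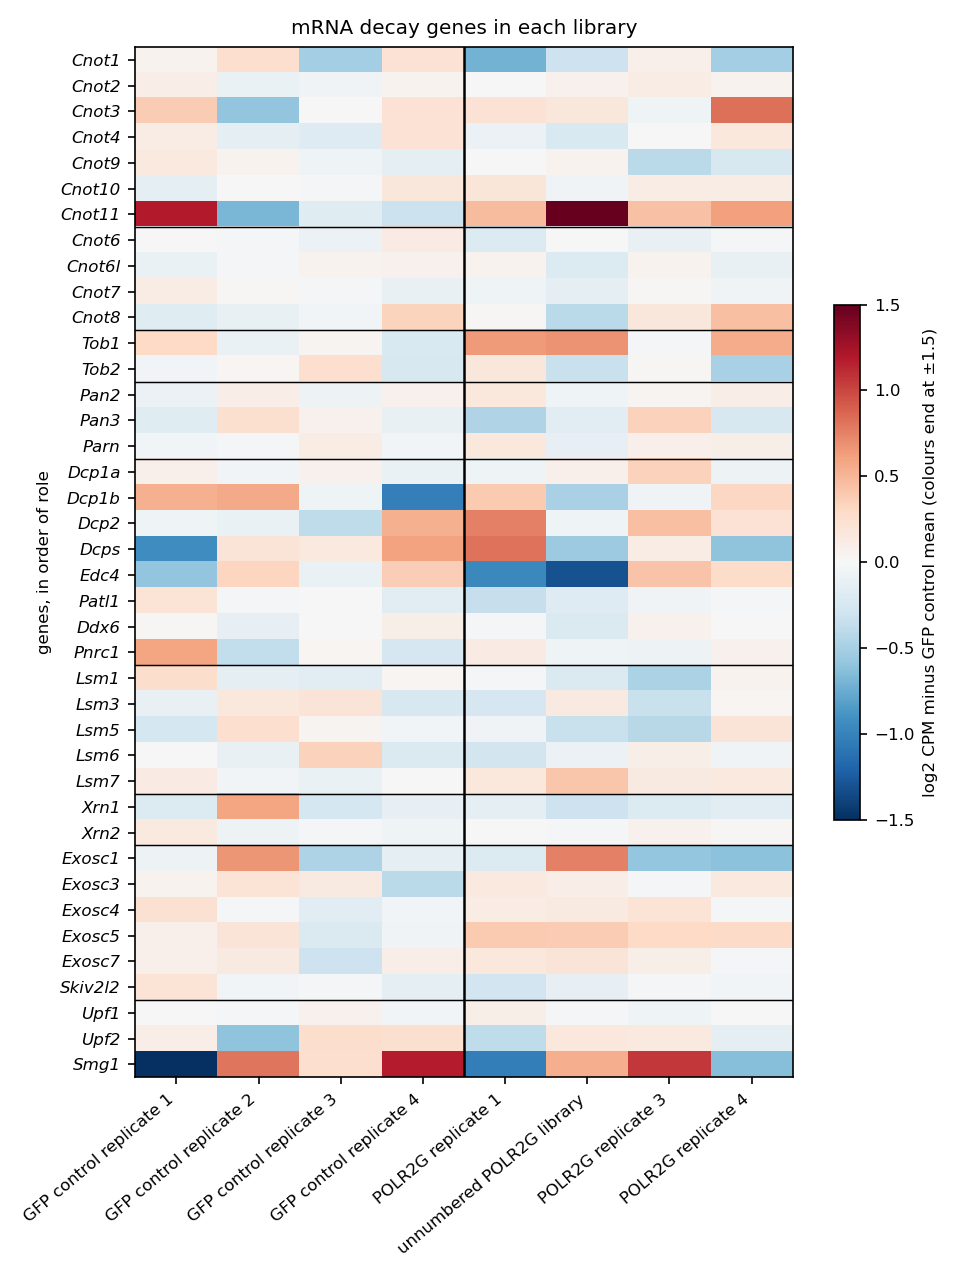
Log2 CPM of the 40 tested members in each of the 8 libraries, minus the gene's GFP control mean; rows are in order of role with lines between roles, and the vertical line parts GFP control from POLR2G. Exosc5 is red in all 4 POLR2G columns, while rows such as Cnot11, Edc4 and Smg1 vary strongly within each group.

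No library stood out over the members as a whole. The mean deviation of the members from their GFP control mean was −0.037 to 0.031 in the control libraries and −0.017 to 0.051 with POLR2G on the log2 scale. By role, nonsense-mediated decay spread most, from −0.71 to 0.46, with Smg1 among its 3 genes. The unnumbered POLR2G library was lowest for decapping genes, at −0.35, where the other 7 libraries lay between −0.037 and 0.15. Its lowest values there came from genes with few counts: Edc4 (−1.31, 25 counts), Dcps (−0.54, 8 counts) and Dcp1b (−0.49, 14 counts). The remaining tested decapping genes lay between −0.21 and 0.079 in that library. Each library held the highest value of 2 to 8 members and the lowest of 2 to 8. The median spread between libraries of a group (SD of log2 CPM) was 0.202 for the members and 0.244 for all genes tested.

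Promoter sequence was not used in choosing the genes, and the members' promoters were on the whole richer in G and C than those of all genes. RefSeq windows of 250 bases upstream of a start site (GRCm38.p6) were found for 41 members, with 50 windows in all, among 32851 windows of all genes. The latter include genes not tested here. No comparison with the tested genes alone was made, so the differences below may not be particular to decay genes. The median GC content was 63.4% in the members' windows and 52.4% in all windows, and the median number of CpG dinucleotides 22 and 6. The SP/KLF motif GGGCGG, searched on both strands, was in 34 of 50 windows (68%) against 32.7% of all, and the ETS motif CCGGAAG in 16% against 6.91%. The NF-Y motif CCAAT was in 30% against 33.8%, the E-box motif CACGTG in 4% against 6.02% and the TATA motif TATAAA in 1 window (2%) against 12.4%. A palindromic NRF1 motif was in 1 window against 0.782% of all, the CRE motif TGACGTCA in 1 against 1.55% and a YY1 motif in 0 against 0.207%. Where motifs overlap, each was counted. These are matches of letters, and are not binding sites. The stretch before the start of Tob1 is shown because it holds the only TATA match among the members, and that of Exosc5 because its groups were apart and both CCAAT and the E-box motif CACGTG occur in it. Each is the 150 bases upstream of the RefSeq start site on the plus strand, 5′ to 3′, at chr11:94211304-94211453 and chr7:25659003-25659152, with SP/KLF, TATA, CCAAT and CACGTG matches in capitals.
Tob1: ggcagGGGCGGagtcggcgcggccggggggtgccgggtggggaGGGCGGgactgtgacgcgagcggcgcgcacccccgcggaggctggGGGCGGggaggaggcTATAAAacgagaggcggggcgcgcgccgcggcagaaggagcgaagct
Exosc5: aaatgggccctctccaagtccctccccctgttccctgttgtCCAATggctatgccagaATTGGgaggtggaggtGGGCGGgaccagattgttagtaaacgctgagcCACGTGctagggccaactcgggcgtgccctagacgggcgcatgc
In Tob1 the TATA match begins 47 bases before the start site and GGGCGG occurs 3 times. In Exosc5 CCAAT occurs once on each strand, GGGCGG once, and CACGTG begins 44 bases before the start site.

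Of 90 other genes of the decay pathway in 5 lists 74 were tested, and 0 passed at an edgeR adjusted p under 0.05 in either direction. At an unadjusted edgeR p under 0.05 there were 5 with a higher and 6 with a lower mean among the 74. That is a larger share than the 8.3% of all genes. The groups did not overlap for 1 gene with POLR2G above and 5 with it below, against 2.83% and 2.68% of all genes. These lists were chosen with earlier results of these data known, and a difference of the lists from all genes was not tested. The median log2 fold change was −0.027. The smallest p in these lists belonged to Paip1, whose product binds the poly(A)-binding protein and stimulates translation. It measured 33.1, 29.5, 37.5 and 37.8 CPM in GFP control replicates 1 to 4 and 22.7 to 26.1 CPM with POLR2G, with no overlap. The log2 fold change was −0.50 (SE 0.0989, edgeR adjusted p = 0.178), and DESeq2 called it (DESeq2 adjusted p = 0.00356). DESeq2 called 1.8% of all genes it gave an adjusted p, and how many of the 74 it called was not counted. Paip2b, an inhibitor of the same protein, measured 27.0 to 28.4 CPM in controls and 31.8 to 33.8 CPM with POLR2G, again with no overlap (0.25, SE 0.0627, edgeR adjusted p = 0.307). Dxo, which clears faulty caps (0.42, SE 0.154, edgeR adjusted p = 0.494), Caprin1, an RNA granule protein (−0.19, SE 0.0703, edgeR adjusted p = 0.500), and Etf1, the translation release factor (−0.17, SE 0.0647, edgeR adjusted p = 0.506), did not pass.

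Among genes of RNA-binding adaptors, Zfp36l2, which brings CCR4-NOT to AU-rich mRNAs, measured 46.0 ± 5.13 and 62.4 ± 8.03 CPM (log2 fold change 0.44, SE 0.113, edgeR adjusted p = 0.309), and DESeq2 called it (DESeq2 adjusted p = 0.0349). Tnrc6b, a partner of Argonaute proteins, measured 149 CPM in POLR2G replicate 4 and in the unnumbered library, and 37.8 to 42.9 CPM in the other 6 libraries (1.21, SE 0.444, edgeR adjusted p = 0.494). Papd5, a nuclear poly(A) polymerase that marks RNA for the exosome, measured 62.2 ± 6.61 and 51.9 ± 2.22 CPM (−0.26, SE 0.0839, edgeR adjusted p = 0.437). Polr2d, the gene of RPB4 and the stalk partner of POLR2G, measured 5.16 ± 0.395 and 4.29 ± 0.499 CPM (−0.27, SE 0.170, edgeR adjusted p = 0.751).

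The few tested transcripts that nonsense-mediated decay is known to limit gave no common direction. The non-coding targets Gas5, Snhg1, Snhg12, Snhg15 and Zfas1 had no usable row, and the activity of the pathway was not tested. Of 14 looked for, 8 had a usable row and 6 were tested, 3 with a higher and 3 with a lower mean (their median log2 fold change 0.065), and 0 passed at an adjusted or an unadjusted p under 0.05. Chac1, also a stress-response gene, had the smallest p (log2 fold change 0.82, SE 0.389, edgeR adjusted p = 0.632), with values from 1.70 to 5.48 CPM in controls and 4.39 to 11.4 CPM with POLR2G.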

How the data were processed

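Poly-A RNA from mouse liver was sequenced, 4 POLR2G against 4 GFP control libraries. The deposited table holds counts per Ensembl gene as deposited whole numbers with no normalization by the authors, and may be rounded Salmon estimates. The submitters' processing notes name Salmon 1.2.1, GRCm38 and mm10 without their use. The annotation release, like the transcript-to-gene step, is not given in the sources used here. Totals are in the report. Symbols were matched in GENCODE M21 for 20817 genes, and Skiv2l2 through its RefSeq synonym Mtrex. Coordinates are GENCODE M21 on GRCm38, and promoter sequences RefSeq GRCm38.p6, counted from 1.

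Groups were compared with edgeR 4.0.16 under R 4.3.3 by its quasi-likelihood test (two-sided, group as sole term, TMM scaling, filterByExpr at min.count 10 and min.total.count 15) over 10390 genes, Benjamini-Hochberg adjusted over all of them, threshold 0.05. The SE is the size of the log2 fold change divided by the square root of F, and intervals use the test's degrees of freedom. CPM are mean ± SD (n = 4). Exact permutation tests used all 70 arrangements of log2 CPM (prior count 2). The steps were tested on simulated data. Alternatives were other scalings, DESeq2 1.42.0, limma-voom (limma 3.58.1), other filters, library sizes without abundant genes, a block for replicate number, and leaving out libraries in turn. Pairs of libraries in a group were not duplicates (chi-square over degrees of freedom at least 13.6). Members named with statistics are those at an unadjusted p under 0.05 or with groups apart and the 2 with the smallest p in each role; others are given as descriptions. In the other lists up to 2 with the smallest p were taken. One gene of those lists is not reported here. Members, lists and tests were chosen with earlier results of these data known.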

Additional observations from a re-analysis of the deposited data

Results flagged for a closer look

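In 6 of the 80 groups of 4 libraries checked (40 members in each of both groups), 1 library lay far from the other 3 relative to their range. Chance flags about 1 in 20 groups. Cnot11 was 11.9 CPM in GFP control replicate 1, where the others were 3.13 to 4.51 CPM. It was also far out in the unnumbered POLR2G library, at 14.9 CPM against 6.97 to 7.92 CPM. Lsm7 was 15.3 CPM in that same unnumbered library, against 12.5 to 12.7 CPM. Xrn1 was 41.7 CPM in GFP control replicate 2, against 23.0 to 25.4 CPM in the other controls. GFP control replicate 3 was out for Parn, at 22.8 CPM against 20.5 to 20.7 CPM, and for Exosc7, at 14.8 CPM against 19.5 to 20.2 CPM.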

How the results depend on the processing

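The count of members past the threshold was 0 under all 20 alternatives. The count at an unadjusted p under 0.05, 2 as reported, was 1 in the replicate block fit and 1 in the same 6 libraries without the block. It was 1 among genes with 1 coding transcript (an alternative added after seeing the data, 8 members tested). With no low-count filter it was 3, where Exosc10 joined as a lower one, and 2 to 4 when 1 library was left out. Exosc10 also joined without GFP control replicate 3 (log2 fold change −3.90), without POLR2G replicate 3 (−3.28) and without the unnumbered POLR2G library (−3.28). In those fits it passed the filter through its control counts alone. The members' median log2 fold change was −0.12 with library totals only, where that of all genes was −0.079, 0.0063 in the replicate block fit and 0.0066 without the block. It was −0.036 to 0.0062 when 1 library was left out. The count of all genes past the threshold, 4 as reported, was 140 with DESeq2, 1 with library totals only (higher, where 2 of the 4 were higher), 2 in the replicate block fit, 1 without the block and 1 to 6 when 1 library was left out. It was 1 without POLR2G replicate 1 or replicate 4, and 2 without the unnumbered POLR2G library or GFP control replicate 2. Same-numbered libraries did not deviate together (correlations 0.064, −0.025 and 0.036), so the numbers were not taken as pairs.

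Of 346 values of the 18 members named with statistics, 331 kept their direction and stayed below the threshold, and 15 changed sign, all close to 0 or with few counts. With library totals only, Pan2 was −0.023, Parn −0.028 and Xrn2 −0.064. Smg1 was 0.22 with limma-voom. In the replicate block fit Xrn1 was 0.024, Xrn2 −0.0020 and Smg1 0.053, and without the block Xrn1 was 0.023 and Xrn2 −0.0044. Xrn2 was −0.018 without GFP control replicate 2, −0.012 without GFP control replicate 4 and −0.0090 without POLR2G replicate 3. Smg1 was 0.18 without GFP control replicate 4 and 0.051 without POLR2G replicate 1, and Upf2 was 0.018 without POLR2G replicate 1. With 1 library left out Xrn2 ranged from −0.018 to 0.062, Upf2 from −0.25 to 0.018 and Smg1 from −0.82 to 0.18. The cause was not tested. Few counts limit Smg1, Dcps, Dcp1b, Exosc1 and Cnot3, and members below the filter cannot be compared.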
